A study of Mus musculus with 43 samples.

Results

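The 36 genes described here encode aminoacyl-tRNA synthetases, and they were taken by symbol from both deposited tables, where all 36 were found among 13845 genes in the first table and 13817 in the second. Of these, 18 encode cytosolic enzymes, 16 encode mitochondrial enzymes, and 2 (Gars and Kars) encode enzymes that serve both compartments. Expression was measured in PD798, a cell line grown out of pancreatic tumor tissue of the KPCY mouse model, in which Pdx1-Cre acts in the pancreatic lineage and switches on a YFP reporter. A processing experiment asked whether the handling needed to recover rare tumor cells alters gene expression, with 12 libraries of bulk RNA, and an input series asked how profiles from few cells compare with bulk, with 31 libraries. By the study's account both used the same line, so the values describe 1 tumor line and not a set of tumors. Epcam and Cldn7 differed widely between the 2 series, as given below, and whether the cells were alike in both was not tested.

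The 4 conditions of the processing experiment had 3 libraries each. Pre-FACS cells were set aside before any sorting, and Mock cells were held on the bench in staining buffer while the others were sorted. Pre-enriched cells, exposed to magnetic particles and red cell lysis buffer, went through magnetic depletion and acoustic washing and then the BD Influx sorter, and FACS-only cells went from the same sample straight to the sorter. The labels mention blood for all libraries, whereas the account of the processing experiment does not, so contact with blood is uncertain for these libraries. The input series held 11 libraries from single cells, 12 from pools of 10 cells and 6 from pools of 100 cells, and 2 libraries of Bulk RNA, all labelled as pre-enriched, sorted and spiked into mouse blood. The study's text is not uniform on the Bulk RNA, which it describes in one place as sorted from blood like the other libraries and in another as isolated from the cell line, while the other libraries were made from the lysate of sorted cells. Whether Bulk RNA was sorted is therefore uncertain, and cell number and handling cannot be told apart in the comparisons with it. Nothing in the labels says that libraries of 1 condition came from separate cultures, so p-values measure the spread between these libraries, which may be technical.

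Aminoacyl-tRNA synthetases join each amino acid to its tRNA and so supply the ribosome with charged tRNA. Cytosolic and mitochondrial translation mostly use separate enzymes, all encoded in the nucleus, and several cytosolic enzymes sit in a multi-synthetase complex held together by the scaffold proteins Aimp1, Aimp2 and Eef1e1. Many cytosolic synthetase genes are known targets of ATF4, the transcription factor through which cells respond to amino acid shortage and other stress.

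Values are TPM (transcripts scaled to a common total), which correct for gene length, so levels can be set side by side between genes of 1 table. This has a limit in the input series, where differences of pools from Bulk RNA still varied with transcript length, as described below. The order of genes could therefore differ between inputs, as it did for Lars and Lars2. Read depth per library was not analysed here, and TPM keeps no record of read number, so no counting error is given for a value. In the processing experiment each library had between 11733 and 11867 genes at 1 TPM or more. All 6 epithelial markers were found in each of the 12 libraries, with a sum of 19812 to 22947 TPM that was carried by the keratin genes Krt18, Krt8 and Krt19. The epithelial surface marker Epcam was at only 32.1 to 38.9 TPM and the tight junction gene Cldn7 at 2.78 to 7.65 TPM, whereas the 2 Bulk RNA libraries of the input series, a table normalized separately, had 811 and 842 TPM of Epcam and 586 and 570.0 TPM of Cldn7. In the processing experiment the 3 blood markers found (of 11 listed) summed to 0.346 to 4.45 TPM, the highest in Pre-enriched library 1, where the erythroid gene Alas2 had 3.33 TPM.

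Cytosolic synthetase genes were expressed at far higher levels than mitochondrial ones. In bulk RNA, fewer cells of a kind and less RNA per cell cannot be told apart. The mean TPM over the 12 libraries had a median of 229 over the 18 cytosolic genes and 24.1 over the 16 mitochondrial genes, compared with 29.4 over all genes of the table that were tested. In the cytosolic class 17 of 18 genes had a mean over 100 TPM, and in the mitochondrial class 2 of 16, Lars2 and Iars2. The 18 cytosolic genes together took 4052 to 4881 TPM per library and the 16 mitochondrial genes 991 to 1114 TPM, a ratio of 3.74 to 4.54. About as much of the mitochondrial sum came from Lars2 as from the other 15 genes together, and without it the ratio was 7.84 to 9.88.

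**Figure D1:**
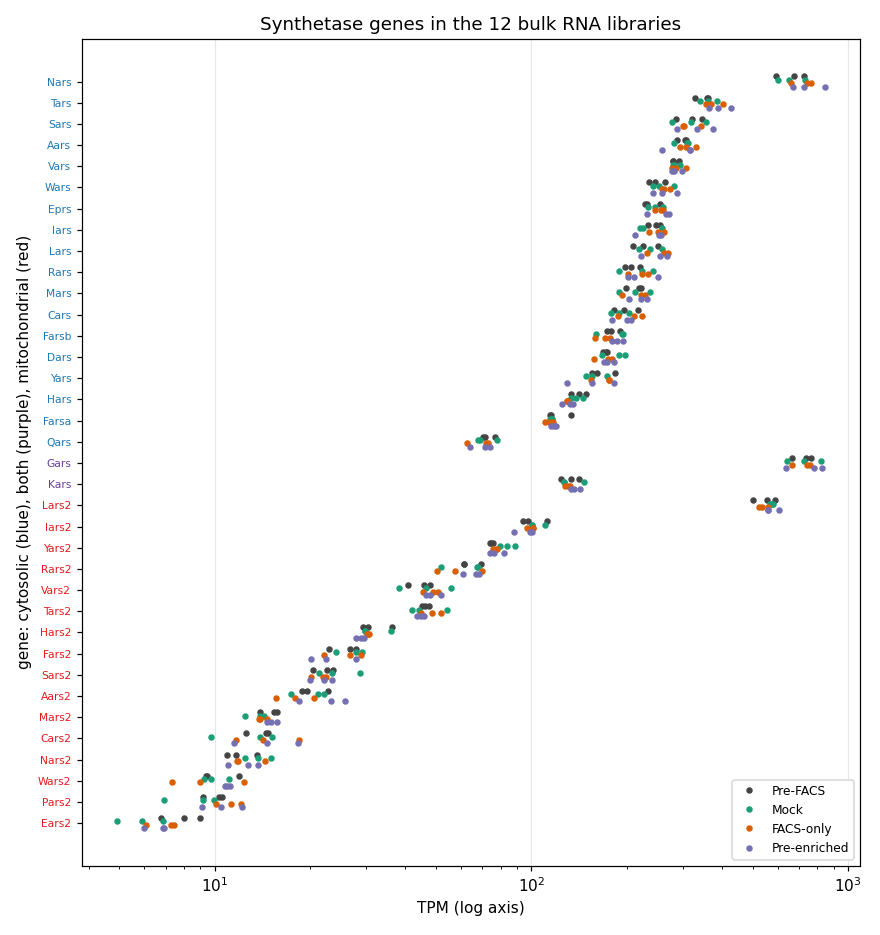
TPM of the 36 genes (log axis) in each of the 12 bulk RNA libraries, with 1 point per library colored by condition and genes ordered by mean within the cytosolic, shared and mitochondrial classes. Lars2, at 499 to 603 TPM, lies among the highest cytosolic genes, and for no gene do the 3 points of 1 condition lie apart from all 9 others.

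At the top of the cytosolic class was Nars (ENSMUSG00000024587, chr18:64499647-64516652, mm10), which charges the asparagine tRNA. Its level was 724, 677 and 590.4 TPM in Pre-FACS, 731, 650 and 599 in Mock, 761, 740.4 and 659 in FACS-only, and 842, 723 and 672 in Pre-enriched. The conditions overlapped, and the spread within a condition was as wide as that between them. That spread followed the library number, since the level fell in the listed order in every condition, as taken up below. Set side by side by number, FACS-only and Pre-enriched libraries lay above those of Pre-FACS, whereas Mock lay on both sides. The labels do not say what a shared number stands for. Tars (threonine, chr15:11382301-11399665) followed at 370.1 ± 26.4 TPM (SD, n = 12 libraries) and Sars (serine, chr3:108424865-108445209) at 320.4 ± 30.1. The lowest cytosolic genes were Hars (histidine, 135 ± 7.09), Farsa (a subunit of the phenylalanine enzyme, 117 ± 5.72) and Qars (glutamine, chr9:108507706-108515941, 70.8 ± 4.60). Thus the class spanned about 1 order of magnitude, and neighbors in the order of means often lay within each other's SD, as did Iars (isoleucine) and Lars (leucine), both at 242.

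The highest mitochondrial gene was Lars2 (ENSMUSG00000035202, chr9:123366927-123462666), which charges the mitochondrial leucine tRNA. Its level was 554, 588 and 499 TPM in Pre-FACS, 577, 574 and 567 in Mock, 522, 535 and 558 in FACS-only, and 603, 556 and 557 in Pre-enriched. Iars2 (isoleucine, chr1:185284726-185329396) came next at 100.2 ± 6.39 TPM (SD, n = 12), so that Lars2 stood far above the rest of its class. Yars2 (tyrosine, 78.3 ± 4.59) followed. At the bottom were Wars2 (tryptophan, 10.2 ± 1.42), Pars2 (proline, 10.1 ± 1.44) and Ears2 (glutamate, chr7:122037213-122067263, 6.83 ± 1.06). Wars2 and Pars2 did not differ beyond their spread.

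Cytosolic and mitochondrial genes named by the same stem were paired for 13 amino acids, which leaves out the enzymes for phenylalanine (Farsa, Farsb and Fars2) and for glutamate and proline (Eprs, Ears2 and Pars2). The cytosolic gene was the higher of the pair in 12 of 12 libraries for 12 of these 13 amino acids. The ratio was widest for asparagine (Nars over Nars2, 55.2 ± 6.71, SD, n = 12) and tryptophan (Wars over Wars2, 25.8 ± 4.07), and narrowest for isoleucine (2.43 ± 0.234) and tyrosine (2.08 ± 0.232). Leucine was the exception, with Lars lower than Lars2 in 12 of 12 libraries at a ratio of 0.435 ± 0.0407. Hars and Hars2 overlap on opposite strands at their ends (chr18:36766528-36783205 and chr18:36783008-36792562), and since no strand setting is stated for the counting, reads from the overlap cannot be told apart.

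Of the 2 genes of enzymes used in both compartments, Gars had a higher mean (729.9 TPM) than any cytosolic gene, and Kars (133 TPM) lay between Hars and Farsa near the bottom of the cytosolic range. Gars (glycine, ENSMUSG00000029777, chr6:55038007-55079500) had 761, 736 and 666 TPM in Pre-FACS, 823, 725 and 639 in Mock, 759, 740.0 and 667 in FACS-only, and 828, 778 and 636 in Pre-enriched. Kars (lysine, chr8:111993443-112011323), an enzyme of the multi-synthetase complex, ranged from 124 to 147 TPM over the 12 libraries. Neither had a condition that stood apart.

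Because ATF4 acts through a composite C/EBP-ATF element, the promoters were searched for its core, the letters TGATGNAA on either strand, in RefSeq windows (GRCm38.p6) from 250 bases before to 50 bases after the start. A window was matched for 27 of the 36 genes. The letters were found in 5 of them, namely 4 of 11 cytosolic genes (Aars, Iars, Tars and Yars), 1 of the 2 shared genes (Gars) and 0 of 14 mitochondrial genes, compared with 4.51% of all 27025 genes with a window and 3.97% of all 32851 windows. The match nearest the start of each of these 5 genes is shown so that the letters can be read in place, and each is given 5′ to 3′ along the gene with the match in capitals, which reads TTNCATCA where it lies on the opposite strand.
Gars, chr6:55037961-55037988, plus strand: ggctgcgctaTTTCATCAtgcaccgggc
Aars, chr8:111033841-111033868, plus strand: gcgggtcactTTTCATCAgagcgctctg
Iars, chr13:49682127-49682154, plus strand: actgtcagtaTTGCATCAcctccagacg
Tars, chr15:11399656-11399683, minus strand: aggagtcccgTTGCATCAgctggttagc
Yars, chr4:129189896-129189923, plus strand: cgagctcagcTGATGCAAcccgacggga
The first base of each of these matches lay between 30 bases before and 10 bases after the RefSeq start. A match describes letters in this window and not binding, and the absence of these letters says nothing of other elements or of the 9 genes without a window.

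The processing conditions were compared with limma on log2(TPM + 1) over 12159 genes, those that reached 1 TPM in 3 or more of the 12 libraries, among them all 36 synthetase genes. None of the 36 changed among the 4 conditions at a Benjamini-Hochberg adjusted p under 0.05 in limma's F test, and 0 of 36 had an unadjusted p under 0.05. In the background, 0.107% of all genes tested had an adjusted p and 7.56% an unadjusted p under 0.05. The count was also 0 with limma without a mean-variance trend, with a threshold of 0.1 and without any 1 of the 12 libraries. For none of the 36 genes did the 3 libraries of 1 condition lie all above or all below the other 9, as they did for 5.27% of all genes tested.

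The cytosolic gene of lowest F-test p was Tars, at 361, 358 and 329 TPM in Pre-FACS, 385, 361 and 341 in Mock, 368, 403 and 357 in FACS-only, and 426, 387 and 365 in Pre-enriched. The Pre-enriched libraries lay just above those of Pre-FACS, and all other pairs of conditions overlapped. Limma gave an F-test p of 0.123 and an adjusted p of 0.743, and Pre-enriched minus Pre-FACS was 0.17 on the log2 scale (95% interval 0.02 to 0.31, adjusted p = 0.471). The next 4 cytosolic genes in this order were Hars, Nars, Farsb (a subunit of the phenylalanine enzyme) and Lars, of which Nars is described above. Hars was at 133, 141 and 149 TPM in Pre-FACS, 146, 139 and 133 in Mock, 129.7, 129.8 and 130.5 in FACS-only, and 135, 125 and 132 in Pre-enriched. Farsb was at 178, 190.3 and 173 TPM in Pre-FACS, 193, 194 and 160.1 in Mock, 159, 177 and 171 in FACS-only, and 194, 179 and 187 in Pre-enriched. Lars was at 252, 226 and 209.5 TPM in Pre-FACS, 258, 238 and 218 in Mock, 269.6, 262 and 232 in FACS-only, and 268, 254 and 221 in Pre-enriched. The FACS-only libraries were below those of Pre-FACS and Mock for Hars and below those of Pre-enriched for Farsb, whereas the conditions overlapped for Lars, and none of these differences passed the test.

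Of the mitochondrial genes, Yars2 (chr16:16302965-16309640) had the lowest F-test p, 0.0844 with an adjusted p of 0.696 in limma. It was at 74.5, 75.5 and 74.0 TPM in Pre-FACS, 84.0, 89.0 and 79.8 in Mock, 77.0, 75.8 and 77.996 in FACS-only, and 81.8, 74.1 and 76.3 in Pre-enriched. The 3 Mock libraries lay above those of Pre-FACS and FACS-only, but a Pre-enriched library fell among them. Ears2 was at 8.97, 7.98 and 6.76 TPM in Pre-FACS, 6.86, 5.89 and 4.93 in Mock, 7.29, 6.08 and 7.45 in FACS-only, and 6.93, 6.87 and 5.96 in Pre-enriched. The Mock and Pre-FACS ranges of Ears2 overlapped. Mock minus Pre-FACS was -0.37 on the log2 scale for Ears2 (adjusted p = 0.997 in limma) and 0.17 for Yars2 (adjusted p = 0.997), so that the 2 mitochondrial genes with an unadjusted p under 0.05 in this pair had opposite signs.

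Pars2, which charges the mitochondrial proline tRNA, was at 10.3, 10.52 and 9.22 TPM in Pre-FACS, 6.93, 9.17 and 9.93 in Mock, 11.3, 12.1 and 10.1 in FACS-only, and 10.49, 12.2 and 9.15 in Pre-enriched. The FACS-only libraries were above those of Mock, and limma gave a difference of 0.34 (95% interval 0.02 to 0.66, adjusted p = 0.875). Aars2, the alanine enzyme, was at 19.5, 22.7 and 18.8 TPM in Pre-FACS, 22.2, 17.4 and 21.2 in Mock, 15.6, 20.6 and 17.99 in FACS-only, and 18.5, 25.8 and 23.2 in Pre-enriched. Its conditions overlapped, and Pre-enriched minus FACS-only was 0.30 on the log2 scale (adjusted p = 0.739 in limma). Lars2, described above, had an F-test adjusted p of 0.841.

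Taking the pairs of conditions one by one, limma called 0 of the 36 genes in each of the 6 pairs. The background at the same threshold was 0.00822% for Mock minus Pre-FACS, 0.123% for FACS-only minus Pre-FACS, 0.0493% for Pre-enriched minus Pre-FACS, and 0.0% for the remaining 3 pairs. At an unadjusted p under 0.05, 1 cytosolic gene (Tars, Pre-enriched minus Pre-FACS) and 4 mitochondrial ones (Yars2 and Ears2, Mock minus Pre-FACS; Pars2, FACS-only minus Mock; Aars2, Pre-enriched minus FACS-only) were counted over the 6 pairs. The background at that threshold was 4.53%, 6.96% and 9.18% for Mock, FACS-only and Pre-enriched minus Pre-FACS, 5.63% and 7.77% for FACS-only and Pre-enriched minus Mock, and 6.75% for Pre-enriched minus FACS-only. The median log2 difference over the 18 cytosolic genes lay between -0.00 and 0.03 in the 6 pairs (between -0.03 and 0.09 when any 1 library was left out), and that over the 16 mitochondrial genes between -0.06 and 0.03 (between -0.09 and 0.06 when any 1 library was left out), compared with -0.01 to 0.00 over all genes.

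The 95% interval of the difference lay within a 1.5-fold change in either direction for 18 of 18 cytosolic genes in each of the 6 pairs, and for 14 to 16 of the 16 mitochondrial genes. Most genes met this bound, 9720 to 10000 of the 12159 tested, depending on the pair. The median half-width of this interval was 0.16 on the log2 scale for cytosolic genes, 0.25 for mitochondrial genes and 0.24 for all genes tested. The less abundant mitochondrial genes were thus measured less closely. The coefficient of variation over the 12 libraries had a median of 6.85% in the cytosolic and 10.52% in the mitochondrial class, compared with 10.4% over all genes.

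**Figure D2:**
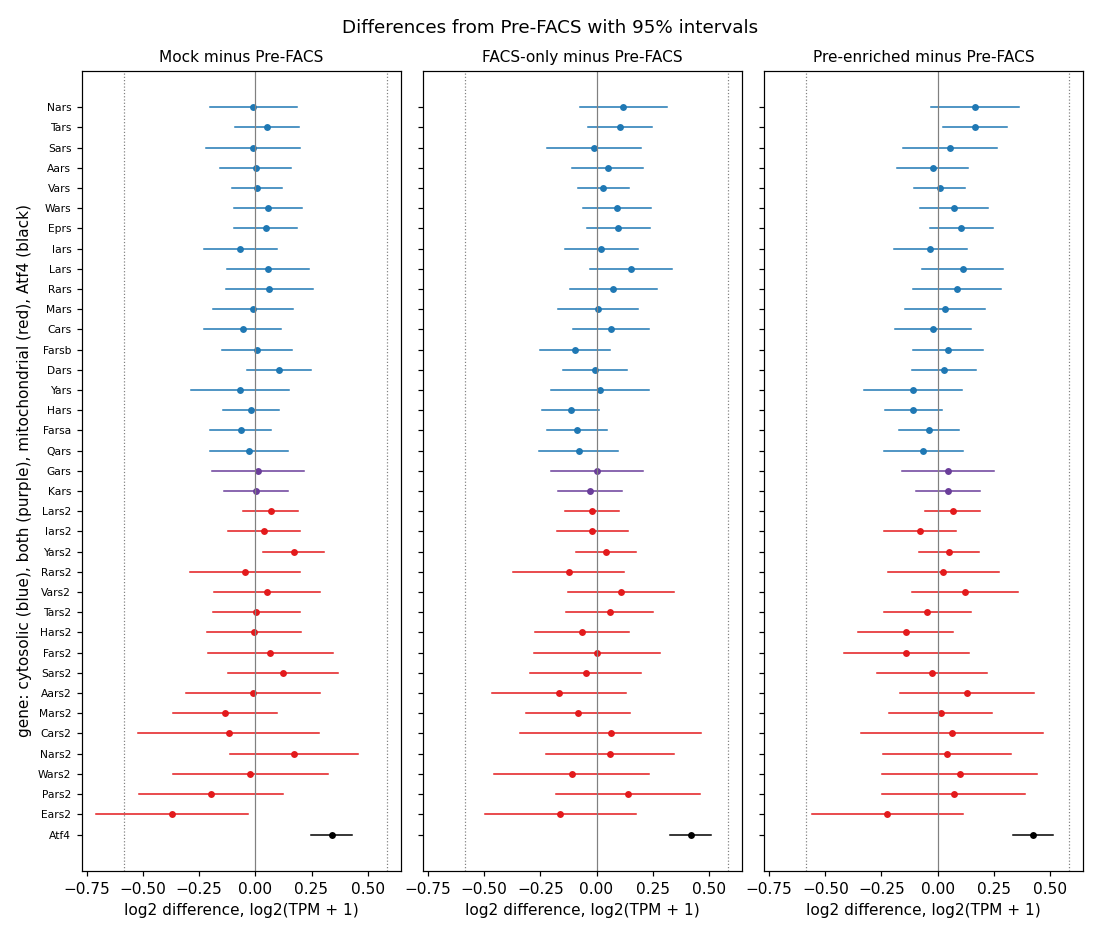
Log2 differences of Mock, FACS-only and Pre-enriched from Pre-FACS on the log2(TPM + 1) scale, with 95% intervals from limma, for the 36 synthetase genes and Atf4; dotted lines mark a 1.5-fold change. The synthetase genes lie on both sides of 0, and Atf4 lies to the right of 0 in all 3 comparisons, at 0.34, 0.42 and 0.42.

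The transcript of Atf4 itself (ENSMUSG00000042406, chr15:80255184-80257541) did change, which was known from earlier results on these data. It was at 600.5, 583 and 579 TPM in Pre-FACS, 754.1, 754.2 and 724 in Mock, 804, 765 and 789 in FACS-only, and 802, 771 and 793 in Pre-enriched. Every Pre-FACS library lay below the other 9, as was found for 0.716% of all genes, and limma's F-test adjusted p was 0.000749. None of the other 10 genes of the stress response list (Ddit3, Trib3, Asns, Chac1, Sesn2, Psat1, Phgdh, Slc7a11, Slc3a2 and Ddit4) was called, and 1 of them, Chac1, had an unadjusted p under 0.05. The condition mean was lowest in Pre-FACS for 8 of the 11 genes of that list, Atf4 included, for 6 of 18 cytosolic and 3 of 16 mitochondrial synthetase genes, and for 23.5% of all genes tested.

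Synthetase genes with and without the core letters in their promoter window are set side by side here without a test. FACS-only minus Pre-FACS ranged from 0.00 to 0.10 on the log2 scale over the 5 genes with a match (Aars, Gars, Iars, Tars and Yars) and from -0.10 to 0.10 over the 8 cytosolic and shared genes with a window and no match, and it was above 0 for 5 of 5 and 2 of 8. Pre-enriched minus Pre-FACS ranged from -0.11 to 0.17 in the first set and from -0.06 to 0.11 in the second. For Mock minus Pre-FACS the ranges were -0.07 to 0.05 and -0.07 to 0.10. Pre-enriched minus FACS-only was above 0 for 2 of 5 genes with a match and 8 of 8 without. Those 2 pairs of conditions were the most unequal of the 6, and the counts above 0 with and without a match were 3 of 5 and 4 of 8 for Mock minus Pre-FACS, 2 of 5 and 6 of 8 for Pre-enriched minus Pre-FACS, 4 of 5 and 2 of 8 for FACS-only minus Mock, and 3 of 5 and 6 of 8 for Pre-enriched minus Mock. Atf4 itself rose by 0.34 to 0.42 on the same scale.

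Of 15 genes that work with the synthetases (scaffold proteins of the complex, proofreading factors, the nuclear tRNA exporter, the enzymes of selenocysteinyl-tRNA and glutaminyl-tRNA synthesis, the mitochondrial methionyl-tRNA formyltransferase Mtfmt, and elongation factors), 0 were called among the 4 conditions by limma, and 2 had an unadjusted p under 0.05. Eef1a1, which brings charged tRNA to the cytosolic ribosome, was at 2532, 2646 and 2445 TPM in Pre-FACS, 2859, 2779.8 and 2725 in Mock, 2631, 2599 and 2689 in FACS-only, and 2994, 2790.4 and 2859 in Pre-enriched (adjusted p = 0.404 in limma). Pre-enriched and Mock libraries lay above those of Pre-FACS. Aimp1, a scaffold of the complex, was at 79.0, 83.8 and 73.5 TPM in Pre-FACS, 80.3, 85.4 and 78.7 in Mock, 85.0, 88.2 and 82.1 in FACS-only, and 96.0, 91.8 and 89.3 in Pre-enriched (adjusted p = 0.558 in limma). The Pre-enriched libraries lay above the other 9, the only gene of this list for which a condition stood apart, and 0.74% of all genes showed that order. Dtd1, which clears D-amino acids from tRNA, was at 23.2 to 23.7 TPM in Pre-FACS, 24.2 to 26.7 in Mock, 26.4 to 33.2 in FACS-only and 21.9 to 29.0 in Pre-enriched (adjusted p = 0.755 in limma).

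Within the conditions, many of the cytosolic genes had a common order of libraries. The summed cytosolic level was 4547, 4405 and 4098 TPM in libraries 1, 2 and 3 of Pre-FACS, 4704, 4370 and 4052 in Mock, 4647, 4586 and 4263 in FACS-only, and 4881, 4551 and 4159.7 in Pre-enriched. In each condition the library numbered 3 was the lowest and the library numbered 1 the highest. Library 1 was the highest in all 4 conditions for 7 of 18 cytosolic genes and 0 of 16 mitochondrial genes, compared with 2.68% of all genes. Gene by gene, library 3 was the lowest of its condition in all 4 conditions for 11 of 18 cytosolic genes (Aars, Cars, Iars, Lars, Mars, Nars, Rars, Sars, Tars, Wars and Yars), for Gars, and for 0 of 16 mitochondrial genes, compared with 2.76% of all genes tested. The other 7 cytosolic genes did not share this order, and library 3 was the highest of Pre-FACS for Hars (149 TPM) and of Mock for Qars (78.1 TPM). The summed mitochondrial level, at 1054, 1098 and 991 TPM in Pre-FACS, 1114, 1058 and 1084 in Mock, 1025, 1031 and 1053 in FACS-only, and 1096, 1067 and 1051 in Pre-enriched, had no such common order.

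The same libraries were lowest for 6 of the 11 genes of the stress response list, namely Trib3, Asns, Psat1, Phgdh, Slc7a11 and Slc3a2. Asns, which makes asparagine, was at 662, 583 and 528 TPM in libraries 1, 2 and 3 of Pre-FACS, 707, 574 and 514 in Mock, 713, 616 and 539 in FACS-only, and 742, 632 and 542 in Pre-enriched. Atf4 was not among them. Among the 15 partner genes Aimp1, Eef1e1 and Xpot, the nuclear exporter of tRNA, were. The labels do not say what a shared number stands for, and the pattern was seen in the data and then counted. The summed epithelial markers went the other way, with library 3 the highest of each condition (from 21660 TPM in Pre-FACS to 22947 TPM in FACS-only), and the part of such differences between libraries in the synthetase values was not tested.

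**Figure D3:**
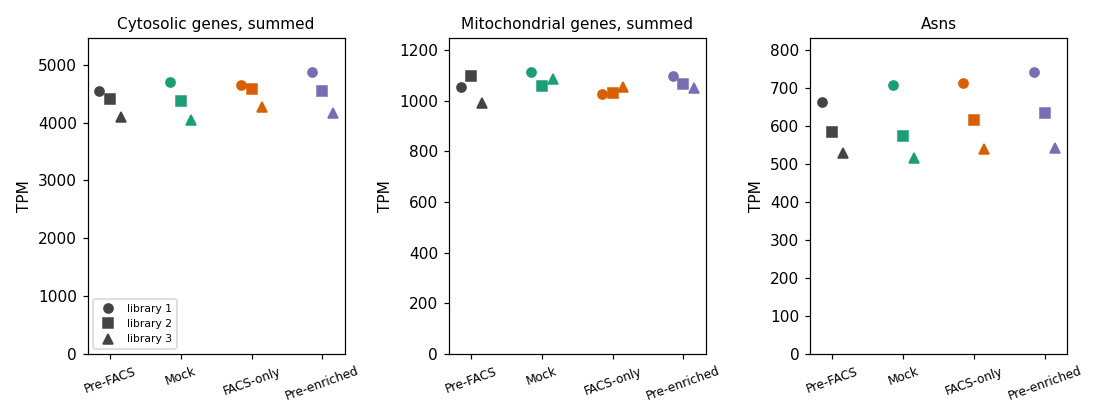
Summed TPM of the 18 cytosolic genes, summed TPM of the 16 mitochondrial genes and TPM of Asns by condition, with 1 point per library and the library number given by its symbol (circle 1, square 2, triangle 3). The triangles are lowest in every condition for the cytosolic sum, from 4052 to 4263 TPM, and for Asns, from 514 to 542 TPM, whereas the mitochondrial sum has no common order.

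In the input series some libraries went against their labels or stood apart. Libraries labelled single cell 6 and 9 had 11438 and 11223 genes at 1 TPM or more, compared with 3919 to 8598 in the other 9, and across genes, which are not independent replicates, log2(TPM + 1) of single cell 6 had an r of 0.996 with the 10-cell pool numbered 5. Pools of 10 cells numbered 5 and 12 had 11497 and 11498 such genes, compared with 9149 to 10760 in the other 10. Pools of 100 cells numbered 4 to 6 had 10255 to 10400, compared with 11488 to 11549 in pools 1 to 3. The genes of the table held 54.2% to 96.6% of the TPM total in the other 9 single cells and at least 93.5% in all pools and Bulk RNA. The main results below are given with and without these libraries. Epithelial markers were present throughout, with a sum of 3068 to 27985 TPM and 6 of 6 at 1 TPM or more in all libraries but single cells 3 and 11, where Epcam was at 0.138 and 0 TPM. The 5 blood markers found (of 11 listed) summed to 0 to 322 TPM, the highest in single cell 11, where the erythroid gene Alas2 had 278 TPM and the neutrophil gene S100a8 43.2 TPM. Alas2 was at 0 to 83.3 TPM with a median of 7.92 in 10-cell pools, at 1.03 to 11.6 TPM in 100-cell pools, and at 0 and 0.415 TPM in Bulk RNA. S100a8 was at 0 to 51.4 TPM in 10-cell pools, at 26.8 to 128 TPM in 100-cell pools, and at 37.4 and 51.0 TPM in Bulk RNA, and the part of blood transcripts in the synthetase values was not tested.

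Cytosolic synthetase transcripts were found in nearly every single cell and mitochondrial ones in about every other. The number of the 11 single cells with 1 TPM or more had a median of 10 over the cytosolic genes (7 to 11) and of 5.5 over the mitochondrial genes (3 to 11). Without cells 6 and 9 the medians were 8 and 3.5 of 9 cells. Gars and Kars were found in 11 of 11. The 5 cytosolic genes Nars, Rars, Aars, Farsb and Yars reached 1 TPM in all 11 cells, and Cars, which charges the cysteine tRNA, was found in the fewest, 7 of 11, followed by Iars, Wars, Mars, Farsa and Qars in 9.

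Nars had 321 TPM at the median of the 11 cells (277 without cells 6 and 9) and 1168 at the highest. Cars was at 86.4 TPM at the median (68.1 without them) and 297 at the highest, and was listed at 0 in 3 cells. Of the mitochondrial genes Lars2 was found in 11 of 11 cells, from 5.75 to 152 TPM with a median of 14.7 (to 62.9 TPM with a median of 11.6 without cells 6 and 9), and Yars2 and Rars2 (arginine) in 8. Aars2 and Hars2 (histidine) were found in 3 of 11 and Pars2 in 4. Since cells 6 and 9 each count among these, Aars2 and Hars2 were found in 1 of the other 9 cells, single cell 1 at 6.74 TPM for Aars2 and single cell 7 at 17.3 TPM for Hars2.

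Detection was higher for genes of higher level in Bulk RNA, with exceptions in the mitochondrial class. Of genes with 100 to 300 TPM in Bulk RNA, the 12 cytosolic genes had 1 TPM or more in 87.1% of their 132 values in single cells, and all 1636 genes of that range in 87.8%. In the range of 30 to 100 TPM the 6 mitochondrial genes were found in 56.1% of values and all genes in 68.0%, and in the range of 10 to 30 TPM the 7 mitochondrial genes in 44.2% and all genes in 47.9%. Without cells 6 and 9 the values were 84.3% and 85.1%, 46.3% and 60.9%, and 31.7% and 36.4%. The 2 mitochondrial genes under 10 TPM in Bulk RNA, Wars2 and Ears2, were found in 11 of 22 values, whereas all genes of 1 to 10 TPM were found in 25.6% (38.9% and 14.5% without cells 6 and 9), and Hars2, with a mean of 37.1 TPM in Bulk RNA, was found in 3 cells. An exact 0 in a table without counts can be a failed measurement, so these shares describe detection and not which cells transcribe a gene. The summed cytosolic level ranged from 576 to 4473 TPM over the 11 cells and the mitochondrial one from 7.40 to 435, with the lowest mitochondrial sum in single cell 11, the cell with the highest sum of blood markers, which had 944 TPM of cytosolic transcripts.

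**Figure D4:**
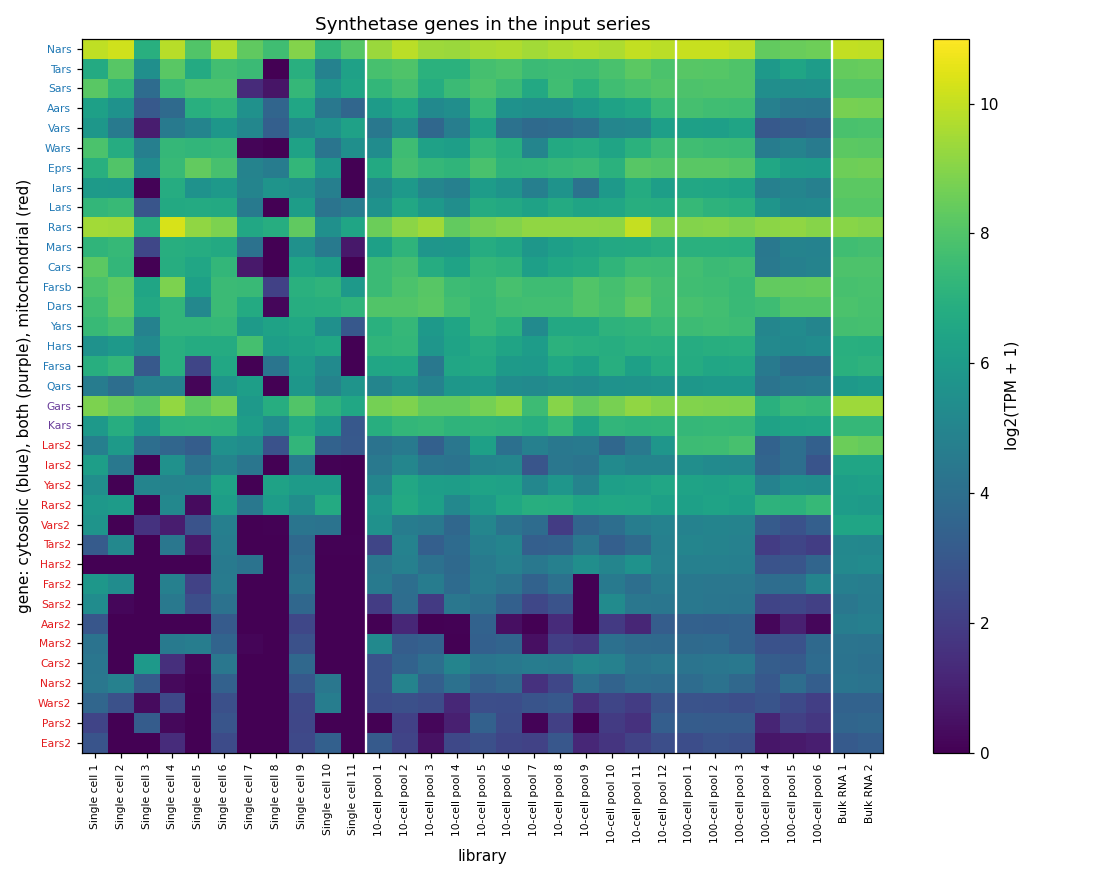
Color shows log2(TPM + 1) of the 36 genes (rows, in the order of the bulk libraries within each class) in the 31 libraries of the input series (columns, divided into single cells, 10-cell pools, 100-cell pools and Bulk RNA). Dark cells are frequent for mitochondrial genes in single cells, single cells 6 and 9 look like pools, and 100-cell pools 4 to 6 are darker than pools 1 to 3 for most genes.

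Pools of 10 cells held all 18 cytosolic genes at 1 TPM or more in each of the 12 libraries and 12 to 16 of the 16 mitochondrial genes. The coefficient of variation between these pools had a median of 30.98% over cytosolic genes, 54.3% over mitochondrial genes and 52.2% over all genes, and 32.3%, 52.4% and 52.5% without pools 5 and 12. The ratio of the cytosolic to the mitochondrial sum was 8.04 to 11.8 in 10-cell pools (8.41 to 11.8 without pools 5 and 12), 6.14 to 7.46 in 100-cell pools and 6.09 and 6.25 in Bulk RNA. Without Lars2 it was 8.77 to 12.5 in 10-cell pools, 10.9, 10.6 and 10.2 in 100-cell pools 1 to 3, 7.63, 7.61 and 6.32 in pools 4 to 6, and 10.2 and 10.1 in Bulk RNA, so that Bulk RNA then lay within the range of the 10-cell pools. Lars2 had 363 and 333 TPM in Bulk RNA but 9.22 to 74.5 TPM, with a median of 20.4, in the 10-cell pools (at most 26.9 TPM without pools 5 and 12). Lars was above Lars2 in 12 of 12 pools of 10 cells and below it in both Bulk RNA libraries. The pools of 100 cells split, with Lars at 163, 138 and 125 TPM and Lars2 at 183, 190.0 and 221 TPM in pools 1 to 3, and Lars at 52.6, 36.4 and 37.8 TPM and Lars2 at 9.89, 15.2 and 9.42 TPM in pools 4 to 6.

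The inputs were compared with limma on log2(TPM + 1) in the 20 libraries of pools and Bulk RNA, over 12231 genes. Against Bulk RNA, 4 cytosolic genes (Aars, Iars, Lars and Vars) and 5 mitochondrial genes (Aars2, Iars2, Lars2, Pars2 and Vars2) were lower in 10-cell pools at an adjusted p under 0.05 and 0 were higher, where 31.9% of all genes were lower and 39.5% were called in either direction. In 100-cell pools 8 cytosolic genes (Aars, Eprs, Iars, Lars, Mars, Tars, Vars and Wars), Gars and 4 mitochondrial genes (Aars2, Iars2, Lars2 and Vars2) were lower and 0 were higher, against 24.9% of all genes lower and 32.3% in either direction. As a share of the 36 genes, 25.0% were called in the first comparison and 36.1% in the second, against the 39.5% and 32.3% of all genes. These shares were not firm, since leaving out 100-cell pools 1 to 3 or 4 to 6 brought the first to 15 genes (41.7%, against 45.2% and 46.6% of all genes), and a pseudocount of 0.1 brought the second to 8 (22.2%, against 19.6%). At an unadjusted p under 0.05 there were 7 cytosolic and 6 mitochondrial genes in the first comparison (49.5% of all genes) and 13 cytosolic genes, 6 mitochondrial genes and 1 shared gene in the second (45.6%). Without 10-cell pools 5 and 12 the counts at an adjusted p under 0.05 were 10 and 12 (27.8% and 33.3% of the 36 genes), against 43.6% and 32.2% of all genes in that fit. With only 1 Bulk RNA library, whose spread is then taken from the other groups, limma called 1 gene in the first comparison and 0 in the second (10.5% to 11.9% and 2.90% to 4.01% of all genes), while the log2 differences kept their size (Vars in 10-cell pools, -3.12 and -3.10). The median difference of 10-cell pools from Bulk RNA was -0.83 over cytosolic, -1.11 over mitochondrial and -0.86 over all genes, and that of 100-cell pools -1.40, -1.22 and -0.79. Without 100-cell pools 4 to 6 the latter were -0.34, -0.47 and -0.35 with 0 members and 7.02% of all genes called, and without pools 1 to 3 they were -2.63, -2.06 and -1.19 with 26 members (24 lower; Farsb and Rars2 higher) and 56.0% of all genes called.

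The direction of the mitochondrial class against Bulk RNA depended on the scaling, as did that of all genes. With quantile normalization, which gives all libraries the same distribution of values, the medians for 10-cell pools were -0.89 over cytosolic, 0.16 over mitochondrial and 0.13 over all genes, and those for 100-cell pools -1.30, 0.00 and 0.05. The share of all genes called lower was then 14.6% and 13.4% and that called higher 17.7% and 16.3%, compared with 31.9% and 24.9% lower and 7.51% and 7.37% higher without it. Limma then called 12 synthetase genes lower and 1 higher (Cars2) in 10-cell pools, and 13 lower and 1 higher (Rars2) in 100-cell pools. The cytosolic median stayed below 0 under both scalings, but its place among all genes did not stay the same. In 10-cell pools it was -0.83 against -0.86 over all genes without quantile normalization, and -0.89 against 0.13 with it. The mitochondrial median there moved with that of all genes, from -1.11 against -0.86 to 0.16 against 0.13.

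The cytosolic genes of largest change were the same in both pools. Vars (valine, chr17:35000987-35016322) was at 229 and 232 TPM in Bulk RNA, at 11.6 to 79.3 TPM with a median of 22.9 in 10-cell pools (at most 42.3 without pools 5 and 12), and at 76.2, 73.7, 84.3, 7.36, 8.35 and 9.66 TPM in 100-cell pools 1 to 6. Its log2 difference from Bulk RNA was -3.11 (SE 0.81, adjusted p = 0.00528 in limma) in 10-cell pools and -3.09 (SE 0.87, adjusted p = 0.0121) in 100-cell pools. Aars (alanine, chr8:111033144-111057664) fell from 424 and 414 TPM in Bulk RNA to 36.7 to 171 TPM with a median of 61.8 in 10-cell pools (at most 95.9 without pools 5 and 12), by 2.59 on the log2 scale (adjusted p = 0.0114 in limma). Iars (chr13:49682100-49734267) fell from 295 and 299.6 TPM to 16.8 to 108 TPM with a median of 49.9, by 2.70 on the log2 scale (adjusted p = 0.000943 in limma). In 100-cell pools 1 to 6 Iars was at 96.4, 90.3, 82.1, 27.0, 31.1 and 26.5 TPM, and Aars at 212, 199, 193, 27.1, 19.8 and 19.0 TPM. The difference from Bulk RNA was -2.54 for Iars and -2.63 for Aars (adjusted p = 0.00384 and 0.02 in limma). These values averaged over pools that differed widely, and without pools 4 to 6 limma called 0 cytosolic genes. In these 3 genes no pool reached the level of either Bulk RNA library. The 3 were named for the size of this change, and the share of all genes with that order was not counted.

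Among mitochondrial genes the changes were largest for Lars2, Aars2 and Vars2. Lars2 differed by -3.92 from Bulk RNA in 10-cell pools (adjusted p = 0.00297 in limma) and by -2.82 in 100-cell pools (adjusted p = 0.0365), with 183, 190.0, 221, 9.89, 15.2 and 9.42 TPM in 100-cell pools 1 to 6. Aars2 was at 24.5 and 26.2 TPM in Bulk RNA, at 0 to 10.1 TPM with a median of 0.80 in 10-cell pools (at most 2.64 without pools 5 and 12), and at 9.55, 9.32, 10.1, 0.13, 0.96 and 0.14 TPM in 100-cell pools 1 to 6. Vars2 (valine, chr17:35655634-35667592) was at 86.8 and 87.3 TPM in Bulk RNA, at 2.91 to 46.7 TPM with a median of 19.1 in 10-cell pools, and at 28.1, 29.97, 29.2, 8.06, 5.85 and 9.15 TPM in 100-cell pools 1 to 6. For all 3 the Bulk RNA libraries lay above every pool. They too were named for the size of this change, and the share of all genes with that order was not counted. Without 10-cell pools 5 and 12, an alternative added after the data had been seen, the log2 differences of 10-cell pools were -4.22 for Lars2, -4.11 for Aars2 and -2.40 for Vars2.

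The scaffold proteins and other partners went both ways. Against Bulk RNA, 5 of 15 partner genes were higher in 10-cell pools by limma (Aimp1, Aimp2, Dtd1, Dtd2 and Pstk) and 2 were lower (Xpot and Sepsecs). In 100-cell pools 5 were higher (Aimp1, Aimp2, Eef1e1, Dtd1 and Pstk) and 1 was lower (Xpot). In the background 7.51% and 7.37% of all genes were higher and, as above, 31.9% and 24.9% lower. With quantile normalization 8 partner genes were higher and 1 was lower in each comparison. Under that scaling more of all genes were higher than without it, and fewer were lower, as given above. Without 100-cell pools 4 to 6 the 100-cell comparison had 0 partner genes higher and 1 lower, against 336 higher and 516 lower of all 12136 genes. Tufm, the mitochondrial elongation factor, was at -1.50 in 100-cell pools (adjusted p = 0.0562 in limma). Aimp1 differed by 1.00 (adjusted p = 0.00219 in limma) and 0.85 (adjusted p = 0.0132), and Xpot by -2.58 (adjusted p = 0.00046) and -2.33 (adjusted p = 0.00268). Transcripts of Aimp1 are short (1126 bases for the longest coding transcript) and those of Xpot long (6005 bases), and the part of length in these differences was not tested.

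Between the pools of 100 and of 10 cells limma called 0 of the 36 genes, with 4 at an unadjusted p under 0.05 in the cytosolic and mitochondrial classes and 1 among the shared genes, against 0.00818% and 7.19% of all genes. The 4 were Cars, Farsa, Hars and Hars2, at -0.91, -0.88, -0.68 and -0.77, and the shared gene was Gars, at -0.59. By size of change the named cytosolic genes were Cars, Farsa and Sars, the last at -0.75. The mitochondrial ones were Lars2, Pars2 and Aars2, at 1.10, 0.91 and 0.86. Adjusted p of these genes of largest change was from 0.685 to 0.778 in limma, and neither Sars nor these mitochondrial genes had an unadjusted p under 0.05. These values averaged over pools that differed widely among themselves, and both the calls and the signs depended on which 100-cell pools were used. Without pools 1 to 3 limma called 21 of 36 genes (17.9% of all genes), and Lars2 and Aars2 were at -0.91 and -0.62. Without pools 4 to 6 it called 1 (Lars2) and a far smaller share of all genes, given in the closing section, and Cars, Farsa and Sars were at 0.52, 0.35 and 0.49. Sars was at 244, 248 and 247 TPM in 100-cell pools 1 to 3, at 42.4, 42.8 and 43.8 TPM in pools 4 to 6, and between 99.8 and 256 in the 10-cell pools. Cars was at 201, 181, 189.9, 20.8, 27.1 and 29.4 TPM in 100-cell pools 1 to 6, and Farsa at 106, 91.0, 96.5, 22.2, 14.9 and 14.9 TPM.

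This split ran through most of the family and through the epithelial markers, whose sum was 26600, 26365 and 27985 TPM in pools 1 to 3 and 7214, 9620 and 10682 TPM in pools 4 to 6, and whose part in the synthetase values was not tested. Pools 4 to 6 lay all below pools 1 to 3 for 15 of 18 cytosolic genes, for Gars and Kars, and for 11 of 16 mitochondrial genes, compared with 59.1% of all genes tested. Aars was at 212, 199 and 193 TPM in pools 1 to 3 and at 27.1, 19.8 and 19.0 in pools 4 to 6. The opposite order was found for Rars, Farsb and Rars2, compared with 16.0% of all genes. Rars (arginine, chr11:35808381-35834506) was at 496, 508, 465, 536, 572 and 517 TPM in pools 1 to 6 and at 524 and 502 TPM in Bulk RNA. Farsb (chr1:78417975-78488897) was at 199, 191 and 169.7 TPM in pools 1 to 3, at 323, 323 and 335 TPM in pools 4 to 6, and at 223 and 225 TPM in Bulk RNA. Rars2 (chr4:34614957-34660167) was at 75.4, 82.9 and 75.7 TPM in pools 1 to 3, at 139, 133 and 163 TPM in pools 4 to 6, and at 67.3 and 62.2 TPM in Bulk RNA. Both arginine enzymes were thus as high in pools 4 to 6 as in Bulk RNA or higher. The 2 subunits of the cytosolic phenylalanine enzyme, Farsa and Farsb, went opposite ways.

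The longest coding transcripts of the 3 genes that were higher in pools 4 to 6 were short and of lower GC content, 45.9% and 2109 bases for Rars, 46.3% and 2036 bases for Farsb, and 44.1% and 1868 bases for Rars2. Those of Aars (56.4%, 5750 bases) and Vars (60.9%, 4137 bases) were longer and richer in GC, whereas that of Farsa was short and rich in GC (56.6%, 1826 bases). Not all genes followed the order of GC content. Fars2 (56.6% GC, 2.125 kilobases) had 0.57, 0.59 and 1.20 times its Bulk RNA level in pools 4 to 6. Cars2 (55.8% GC, 1.902 kilobases) had 0.50, 0.47 and 0.80 times, and Mars2 (38.8% GC, 11.294 kilobases) 0.34, 0.34 and 0.71 times. By length, Fars2 and Cars2 were thus short and Mars2 was long. Over the 36 genes, Spearman's rho of the log2 difference from Bulk RNA with GC content was -0.60, -0.61 and -0.53 in pools 4, 5 and 6 and -0.35, -0.36 and -0.17 in pools 1, 2 and 3, and with transcript length it was -0.48, -0.48 and -0.52 in pools 4 to 6 and -0.67, -0.61 and -0.71 in pools 1 to 3. Over 11333 genes rho with GC content was -0.37, -0.33 and -0.32 in pools 4 to 6 and 0.00, 0.01 and 0.08 in pools 1 to 3, and rho with length was -0.45 to -0.67 over the 6 pools. These are descriptions across genes, which share their library and their Bulk RNA reference, and the part of GC content and length in the synthetase values was not tested.

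**Figure D5:**
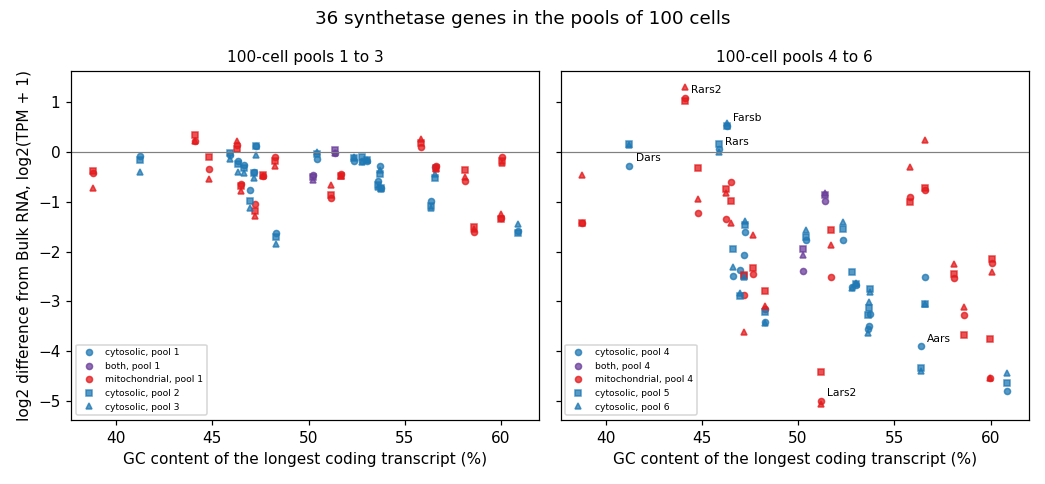
Log2 difference from Bulk RNA, on the log2(TPM + 1) scale, of the 36 genes against GC content (%) of the longest coding transcript, with pools of 100 cells 1 to 3 on the left and 4 to 6 on the right, 1 symbol per pool and color by class. In pools 4 to 6 most genes lie well below 0. Rars, Rars2, Farsb and Dars, at 41.2% to 46.3% GC, lie near or above 0. Fars2 (56.6% GC) and Cars2 (55.8% GC) do so in pool 6 and Nars2 (44.8% GC) in pool 5. Mars2, of the lowest GC content (38.8%), lies below 0.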

How the data were processed

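The authors aligned reads of SMART-Seq v4 libraries to mm10 with ERCC92 spike-in sequences (STAR), counted reads per gene (featureCounts), applied upper-quartile normalization with EDASeq and deposited TPM based on effective gene length. Of the deposited TPM columns 0 were left unused. The annotation and strand setting of the counting are not given in the sources used here. TPM keeps no read number per library. The 36 members and all gene lists were chosen with earlier results of these data known.

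Values were analysed as log2(TPM + 1), which understates changes of low genes, with limma 3.58.1 (R 4.3.3), moderating variances along a mean-variance trend. One fit covered the 12 processing libraries and another the 20 libraries of pools and Bulk RNA, each over the genes that reached 1 TPM in 3 or more of its libraries. Single cells were described without a test. Adjusted p-values are Benjamini-Hochberg values taken over all genes of a fit, with a threshold of 0.05, and the fits were tested on simulated data. There the processing fit recovered most and the input fit, anchored by 2 Bulk RNA libraries, few of the changes put in. Those changes were larger than the differences seen between conditions for the synthetase genes, so differences of the size seen may go uncalled in the processing fit. In the input fit most changes of the size put in went uncalled, and smaller ones may too. Tests stayed within a table, since the tables were normalized separately. Named were members called, the 5 of each class with the lowest F-test p, the 3 highest and 3 lowest of each class, those found in most and fewest single cells, the 3 of each class with the largest change per pair of inputs, and the 3 partner genes with the lowest p. Genes named for their order among the pools of 100 cells or among libraries of 1 condition were chosen after their values were seen. Some items are not reported here. Coordinates, GC content and lengths come from GENCODE M21 and promoters from RefSeq. Python 3.11.15 with pandas 2.3.3 was used for descriptions.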

Additional observations from a re-analysis of the deposited data

How the results depend on the processing

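In the processing experiment the count of synthetase genes called was 0 under every alternative tried (pseudocount 0.1, other filters, quantile normalization, no trend, a threshold of 0.1, only the 2 conditions compared, leaving out each library). Whether the replicate numbers mark shared cultures is uncertain. The correlation of deviations was above 0 in 17 of 18 same-numbered pairs but over 0.1, the limit set for taking the libraries as paired, in 2 of them (-0.04 to 0.23), and 9 of 12 libraries correlated best with their own number. With the number as a block 0 members were called, with a lowest adjusted p of 0.1115 in the F test and 0.0927 for Pre-enriched minus Pre-FACS, and all genes called by the F test rose from 13 to 61. The mitochondrial class was at -0.061 for FACS-only minus Mock by the median of its genes and at -0.0068 by their mean. Leaving out 1 library, the mitochondrial median ranged from -0.033 to 0.063 for Mock minus Pre-FACS, from -0.058 to 0.037 for Pre-enriched minus Mock, and from -0.088 to -0.013 for FACS-only minus Mock, with 0.063, -0.058 and -0.088 without Mock replicate 2. The cytosolic median reached 0.090 for FACS-only minus Mock, 0.087 for Pre-enriched minus Mock and 0.079 for FACS-only minus Pre-FACS.

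In the input series, members called by limma against Bulk RNA numbered 9 in 10-cell and 13 in 100-cell pools. These became 1 and 0 with the replicate block or without either Bulk RNA replicate (1 to 1 and 0 to 0; the lone library takes its spread from the other groups, and log2 differences kept their size, Vars -3.12 to -3.10 and Lars2 -3.99 to -3.86 in 10-cell pools), 15 and 26 without 100-cell pools 1 to 3 (45.2% and 56.0% of all genes), and 15 and 0 without pools 4 to 6 (46.6% and 7.02%). The replicate block left 6.22% and 0 of all genes called. Nothing in the labels links equal numbers across inputs, and Bulk RNA shares only numbers 1 and 2 with the pools, so this block stands for no known pairing. With a pseudocount of 0.1 the second was 8 (19.6% of all genes). For 100-cell minus 10-cell pools, 21 of 36 (19 lower) were called without pools 1 to 3, where 17.9% of all genes were, and 1 (Lars2, 3.11) without pools 4 to 6, where 0.033% were. Without pools 1 to 3 Lars2 and Aars2 turned to -0.91 and -0.62, and without pools 4 to 6 Cars, Farsa and Sars turned to 0.52, 0.35 and 0.49. The cause was not tested. Without single cells 6 and 9, an alternative added after the data had been seen, the median of mitochondrial detection was 3.5. Of the other counts and class medians, 394 values stayed within 1.5 times (counts) or within the SD between libraries (medians). Of the values of single named genes 354 kept their side of the threshold and, for differences, their sign, 42 lost the call and 4 gained one. Depth per library was not analysed here, and only 2 Bulk RNA libraries anchor the input comparisons.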
